A study of Rattus norvegicus with 8 samples.

Results

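The 7 genes of NMDA receptor subunits (Grin1, Grin2a, Grin2b, Grin2c, Grin2d, Grin3a and Grin3b) were followed in motoneurons of the rat lumbar spinal cord between postnatal day 1 (P1) and postnatal day 21 (P21). The members were all probe sets of the array whose single annotated gene symbol is one of these 7, which gave 13 of the 31042 probe sets in the deposited table and at least 1 for each of the 7 genes. Both groups were Wistar albino rats with no treatment named. P1 falls while the motor axons are being myelinated and P21 after myelination is complete, per the labels. Each age had 4 arrays, and each array carried the amplified RNA of 1500 to 2000 cresyl violet-stained motoneurons cut from the cord by laser capture, taken from a pool of 4 rats, with animals of 4 litters divided between the ages. A captured pool also holds RNA of adjoining cells, and fewer cells of a type cannot be told apart from less RNA per cell.

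NMDA receptors are glutamate-gated channels of excitatory synapses that pass calcium and open when glutamate and a co-agonist, glycine or D-serine, are bound and depolarisation lifts the magnesium block. Each receptor contains the obligatory subunit GluN1 (Grin1) together with GluN2 subunits (Grin2a to Grin2d), which bind glutamate and set the kinetics and magnesium sensitivity, or GluN3 subunits (Grin3a and Grin3b), which bind glycine and lower calcium permeability and magnesium block. In many brain regions GluN2B and GluN2D prevail early and GluN2A or GluN2C increase after birth, and GluN3B is known for its presence in somatic motoneurons. Some NMDA receptor subunits are also made by astrocytes and by cells of the oligodendrocyte lineage.

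RefSeq promoter windows of the rat assembly GRCr8, 250 bases before to 50 after the start site, were matched by gene for 4 of the 7 genes, Grin1, Grin2c, Grin2d and Grin3a. The windows of Grin1, the subunit of every receptor and lower at P21, and of Grin2c, which did not pass the test, are printed as a pair that differs in its GC boxes. Capitals mark matches to the GC box GGGCGG and to the EGR motif GCGGGGGCG on either strand. The Grin1 window lies at chr3:28528705-28529004 on the minus strand and that of Grin2c at chr10:101005089-101005388 on the minus strand.
Grin1: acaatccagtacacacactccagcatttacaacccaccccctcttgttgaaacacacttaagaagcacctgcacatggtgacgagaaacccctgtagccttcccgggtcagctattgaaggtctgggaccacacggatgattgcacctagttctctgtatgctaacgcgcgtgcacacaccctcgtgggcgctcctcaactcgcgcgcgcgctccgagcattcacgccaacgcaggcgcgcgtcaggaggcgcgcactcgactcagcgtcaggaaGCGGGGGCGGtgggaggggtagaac
Grin2c: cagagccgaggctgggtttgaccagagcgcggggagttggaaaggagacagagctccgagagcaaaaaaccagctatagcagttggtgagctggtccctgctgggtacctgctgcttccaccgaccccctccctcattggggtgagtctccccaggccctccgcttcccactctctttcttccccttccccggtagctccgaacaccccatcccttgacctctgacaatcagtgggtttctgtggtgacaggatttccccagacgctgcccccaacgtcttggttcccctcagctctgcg
In the Grin1 window the EGR motif began at base 26 and the GC box at base 30, counted from 1 at the start site, so the 2 matches overlap. A GC box was found in 33.1% and an EGR motif in 2.73% of 33469 promoter windows of 300 bases, and neither was found in the windows of Grin2c, Grin2d or Grin3a. The half-site TGACG of cAMP response elements was matched 3 times in the Grin1 window and in none of the other 3. At least 1 match was found in 21.2% of all windows, and the share with 3 matches was not counted. No TATAAA was found in the 4 windows, and the E box CANNTG, present in 72.1% of all windows, was matched in each. These matches describe letters in a window and were not linked to the changes that follow.

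Of the 13 member probe sets 6, belonging to 5 genes, were bright enough to be tested, and 4 of them differed between the ages. Grin3b was higher at P21, Grin1 and both tested probe sets of Grin2a were lower, and Grin2c and Grin3a did not pass. Grin2b and Grin2d read below the level required for testing on all 8 arrays. A probe set was tested if it exceeded the 40th percentile of its array, here called the filter level (221 to 287 across arrays), on at least 4 of the 8 arrays. The test was limma on log2(intensity + 16), with p-values adjusted over all 19155 probe sets tested and a call at an adjusted p under 0.05, and changes are log2 of P21 over P1 ± SE with n = 4 arrays per age. Of all probe sets tested 38.3% were called (20.8% higher and 17.4% lower at P21), against 4 of 6 member probe sets (1 higher and 3 lower). By each gene's brightest tested probe set, 3 of 5 member genes were called, against 39.4% of 10961 genes, and the median change was -0.25 against 0.05. With 5 genes, such a share is not distinguished from the background. Over all 13 member probe sets the 4 intensities at 1 age lay entirely to 1 side of those at the other in 5, against 28.2% of all 31042 probe sets.

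**Figure D1:**
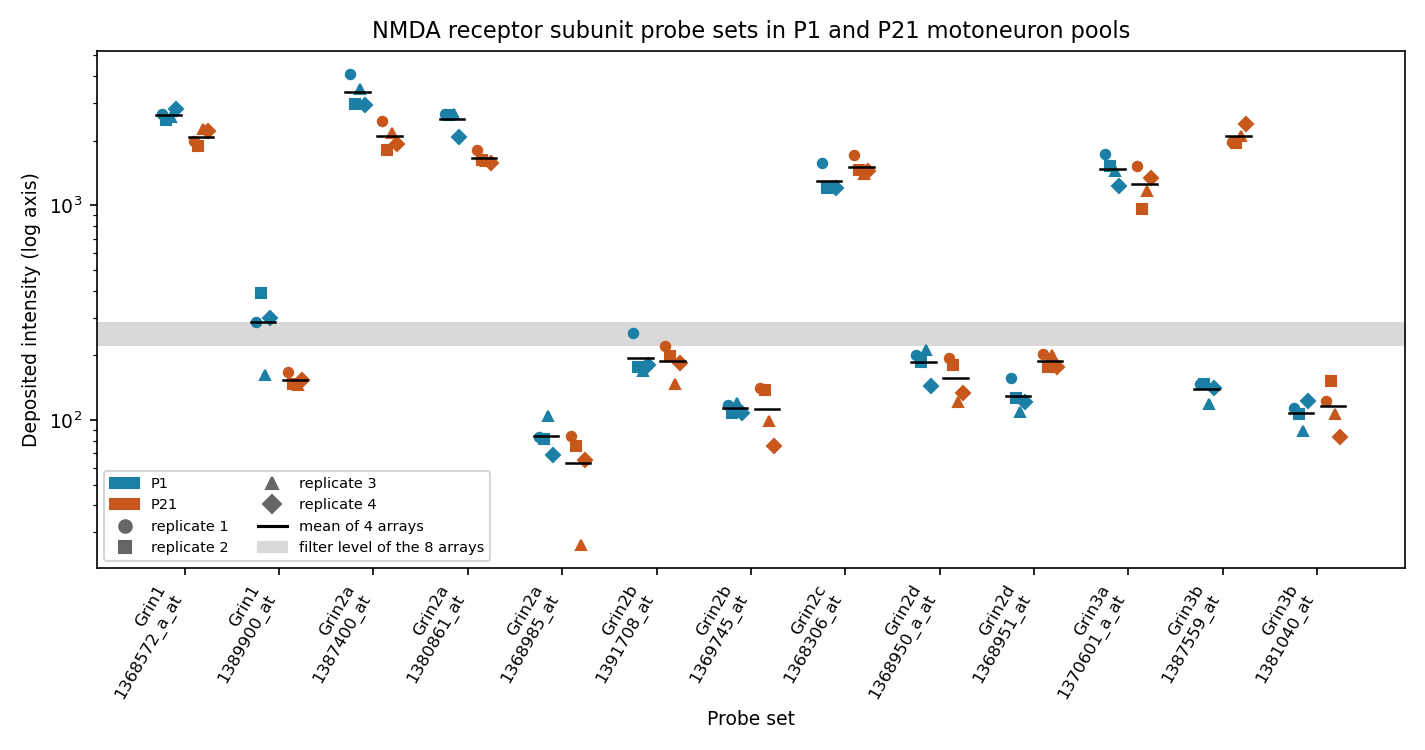
Deposited intensity (log axis) of the 13 probe sets of NMDA receptor subunits on each of the 4 P1 and 4 P21 arrays, with symbols for replicate numbers, bars for the mean of 4 arrays and a grey band for the filter level of the arrays (221 to 287). Grin3b 1387559_at moves from under the band at P1 to near 2000 at P21 (mean 2105), whereas 6 of the other 12 probe sets stay under the filter level of the same array on all 8 arrays.

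Grin1, the obligatory subunit, was modestly lower at P21. Its probe set 1368572_a_at read 2674, 2502, 2570.1 and 2803 on P1 replicates 1 to 4 and 1992, 1885, 2261 and 2224 on P21 replicates 1 to 4. All 4 P21 readings lay under all 4 P1 readings, a separation that 38% of the tested probe sets showed in either direction. The mean went from 2637 ± 131 to 2091 ± 182 (SD), a change of -0.34 ± 0.09 or 1.26-fold lower (limma adjusted p = 0.0193). The call was lost without P1 replicate 4 (change -0.31, adjusted p = 0.0613) and without P21 replicate 2 (change -0.29, adjusted p = 0.0503). The second Grin1 probe set, 1389900_at, which is annotated to an expressed sequence tag, exceeded the filter level on 3 P1 arrays and on 0 P21 arrays and so was not tested. It read 285, 392, 163 and 299.7 at P1 and 168, 148, 145 and 154 at P21, with P1 replicate 3 inside the P21 range.

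Grin2a, the GluN2 subunit of fast mature receptors, had 2 bright probe sets, and both were lower at P21. Probe set 1387400_at read 4077, 2960.1, 3466 and 2916 at P1 and 2469, 1804, 2171 and 1939.97 at P21. The lowest P1 reading was above the highest P21 reading, and the mean went from 3355 ± 542 to 2096 ± 291, a change of -0.67 ± 0.14 or 1.59-fold lower (limma adjusted p = 0.00442). Replicate 1 was the highest of its age at both P1 and P21. Probe set 1380861_at read 2669, 2633, 2673 and 2078 at P1 and 1810.3, 1622, 1599.9 and 1582 at P21, again with no overlap. Its change was -0.59 ± 0.11 or 1.51-fold lower (limma adjusted p = 0.00209), so the 2 probe sets gave like sizes. The remaining Grin2a probe set, 1368985_at, lay under the filter level on all 8 arrays, between 26.3 and 104.

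Grin2c, the GluN2 subunit best known from cerebellar granule cells and astrocytes, did not pass the test. Its only probe set, 1368306_at, read 1575, 1201, 1236 and 1206 at P1 and 1713, 1465, 1399 and 1447 at P21. The ages overlapped through P1 replicate 1, the highest P1 array, which lay above 3 of the 4 P21 arrays. The mean was 1305 ± 181 at P1 and 1506 ± 141 at P21, a change of 0.21 ± 0.12 (limma adjusted p = 0.191) with a 95% interval from -0.05 to 0.47. Between arrays of the same replicate number, P21 was above P1 in 4 of 4 pairs, by 0.12 to 0.28 on the log2 scale. With the replicate number as a block in limma the adjusted p was 0.0612, and with arrays centred on their medians the change was 0.07 (adjusted p = 0.714).

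Grin3a, the GluN3 subunit that is widespread in the young brain, did not pass either. Probe set 1370601_a_at read 1725, 1524, 1452 and 1225 at P1 and 1524, 962, 1170.1 and 1347 at P21. The ranges of the ages overlapped over most of their width, and P21 was below P1 in 3 of 4 pairs of the same number. The mean was 1482 ± 206 and 1251 ± 241, a change of -0.25 ± 0.16 (limma adjusted p = 0.240) with a 95% interval from -0.60 to 0.10. The interval includes both a decrease like that of Grin1 and no change.

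Grin3b, the GluN3 subunit associated with motoneurons, went the opposite way to Grin1 and Grin2a. Probe set 1387559_at read 148, 147, 119 and 141 at P1 and 1963, 1945, 2114 and 2397 at P21. All 4 P1 readings lay under the filter level of their arrays and all 4 P21 readings above it. The mean went from 139 ± 13.4 to 2105 ± 209, and the fitted change was 3.78 ± 0.11 (limma adjusted p = 4.43e-08). Set against the filter level at P1 rather than the dim P1 readings, the rise was at least 7.90-fold. The probe set entered the test only through its P21 readings, so that a change was implied by its being tested. The second Grin3b probe set, 1381040_at, annotated to an expressed sequence tag, did not show the rise. It read 114, 107, 88.8 and 122 at P1 and 123, 152, 106 and 83.8 at P21, under the filter level on all 8 arrays. The Grin3b result therefore rests on 1 of 2 probe sets.

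**Figure D2:**
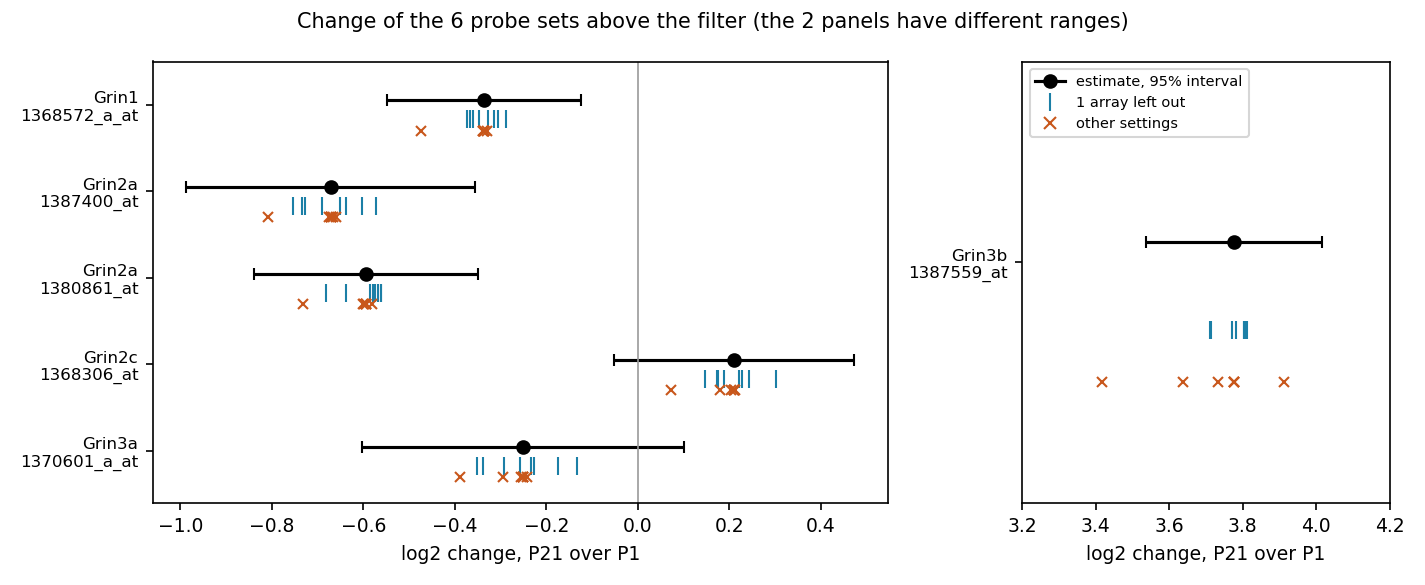
Change from P1 to P21 (log2 of P21 over P1) of the 6 tested probe sets, with the 95% interval of limma (black), the change with 1 array left out (ticks) and the change under the other settings of offset, filter, scaling and replicate block (crosses). Grin1 and Grin2a stay below 0 and Grin3b stays between 3.42 and 3.91 under all settings shown, while the intervals of Grin2c and Grin3a include 0.

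Grin2b and Grin2d, the subunits that prevail early in many regions, had no reading above the filter level at either age. For Grin2b, probe set 1391708_at read 168 to 253 at P1 and 148 to 221 at P21, and probe set 1369745_at read 107 to 119 and 75.5 to 140. Both overlapped between the ages. For Grin2d, probe set 1368950_a_at read 144 to 213 at P1 and 121 to 195 at P21, with overlap. Probe set 1368951_at of Grin2d read 157, 127, 109 and 121 at P1 and 202, 176, 201 and 178 at P21, higher on every P21 array yet under the filter level throughout, and no fold is given. A dim probe set gives a bound on the signal, not the absence of the transcript.

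Since a common shift of an array cancels within it, each subunit was also set against Grin1 on the same array, on the log2(intensity + 16) scale and as a difference from the P1 mean. Only the shift between ages is read from this, because levels of different probe sets are not comparable. The difference between Grin2c and Grin1 moved by 0.55, with P1 arrays ranging from -0.19 to 0.26, P21 arrays ranging from 0.33 to 0.80 and no overlap. Against Grin2a, Grin2c moved by 0.88, again with no overlap, the P21 arrays lying 0.72 to 1.05 above the P1 mean. Both shifts include the fall of the gene set against it, -0.34 for Grin1 and -0.67 for Grin2a. Grin2c itself changed by 0.21 and was not called, so these shifts do not show a rise of Grin2c. Grin2a against Grin1 moved by -0.34, but the ages overlapped, with P21 replicate 1 at -0.03 inside the P1 range of -0.28 to 0.27. Grin3a against Grin1 moved by 0.08 with overlapping ages. Grin3b against Grin1 moved by 4.11, with the P21 arrays between 4.01 and 4.21, a size that depends on the dim P1 readings of Grin3b. No test was run on these differences, which were chosen with their values in view.

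**Figure D3:**
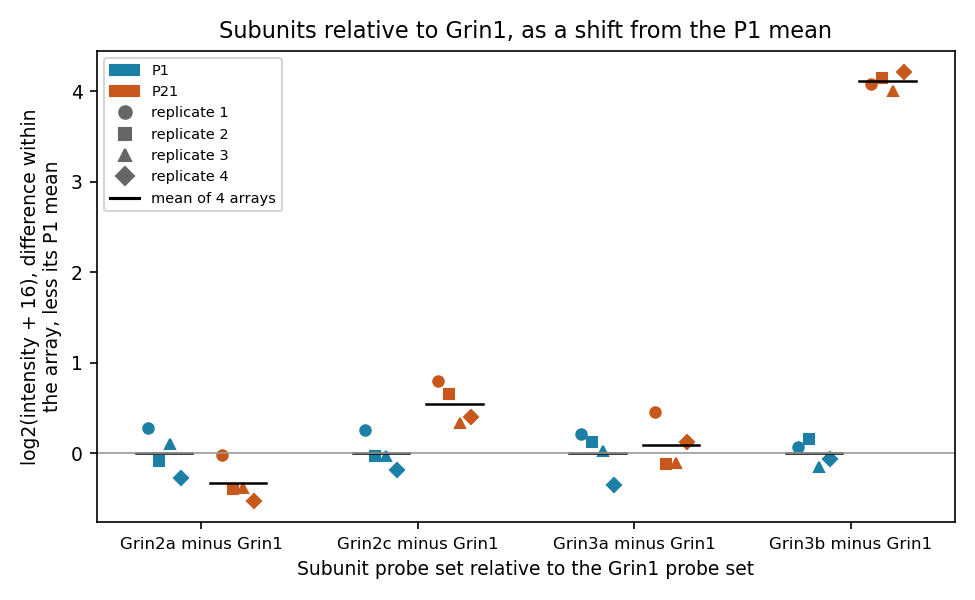
Difference in log2(intensity + 16) between each of 4 subunit probe sets and the Grin1 probe set on the same array, less the mean of that difference at P1, for the 4 P1 and 4 P21 arrays, with bars for the mean of 4 arrays. Grin3b shifts by 4.11 and Grin2c by 0.55 with no overlap of the ages, while Grin2a (-0.34) and Grin3a (0.08) overlap. All 4 shifts include the fall of Grin1 itself.

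The 3 genes closest to each member were found among the 10961 genes by the root-mean-square difference of log2 values over the 8 arrays, each gene centred on its own mean. They are given as descriptions only. Closest to Grin1 were Lrrc47 (difference 0.03), Tchp (0.03) and Atp13a2 (0.04), with changes of -0.37, -0.33 and -0.28. Closest to Grin2a were Gpr61 (0.07), Mapk6 (0.10) and Esrrb (0.10), with changes of -0.64, -0.69 and -0.52. For Grin2c they were Zfp91 (0.04), Elf3 (0.05) and Camk2g (0.06), and for Grin3a they were Dcaf12l1 (0.07), Ralgps2 (0.10) and Zfp346 (0.10). Grin3b was closest to the histone gene Hist4h4 (0.11), to Bag3, a co-chaperone of selective autophagy (0.15), and to Mog, a protein of central myelin (0.17). Bag3 went from 395 ± 35.3 to 5458 ± 211 and was above the filter level at both ages, whereas Hist4h4 (at least 6.86-fold) and Mog (at least 10.9-fold) were under it on all 4 P1 arrays.

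Transcripts of the proteins that bind, anchor and carry NMDA receptors moved in both directions. Of 19 listed genes 15 were tested, of which 3 rose, 5 fell and 7 were not called, and their median change was -0.06. With array medians aligned, 1 rose and 5 fell. The 39.4% of all genes called is the background for the counts of this list and of the gene lists below. The share of calls in a list was not tested against it. Pacsin1, an endocytic adaptor that binds GluN3A, rose from 1371 ± 165 to 2442 ± 65.6 (0.83 ± 0.10, limma adjusted p = 2.05e-04). Dlg1, the scaffold SAP97, rose by 0.33 ± 0.11 (adjusted p = 0.0319) but did not pass once array medians were aligned (adjusted p = 0.315) or when P1 replicate 1, P1 replicate 4 or any P21 array except replicate 2 was left out (0.0566 to 0.0828). Apba1, an adaptor between receptor cargo and its motor, fell from 2831 ± 122 to 1219 ± 216, while the other tested probe set of Apba1 did not pass (0.04). Akap5, an anchor of kinases and calcineurin at the synapse, fell by 1.12 ± 0.27 on the log2 scale (adjusted p = 0.00844).

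Among genes coupled to the receptor's signal 15 of 22 listed were tested, of which 1 rose, 4 fell and 10 did not pass (median -0.07), a share of calls near the 39.4% of all genes. Dapk1, a death-associated kinase that binds GluN2B, fell from 1869 ± 181 to 132 ± 16.7, at least 6.46-fold (limma adjusted p = 7.55e-08). Its second tested probe set fell as well (-3.92), but no bound was taken for it, so this size may also depend on dim readings. The brightest Dapk1 probe set exceeded the filter level on 4 P1 and 0 P21 arrays. It entered the test only through its P1 readings, so that a change was implied by its being tested. Ptpn5, the phosphatase STEP that promotes removal of the receptor from the surface, fell from 2401 ± 207 to 1072 ± 172 (change -1.16 ± 0.13). Camk2a, the calcium-dependent kinase of excitatory synapses, rose by 0.56 ± 0.20 (limma adjusted p = 0.0471) on its brightest probe set, while its other tested probe set did not pass (0.34, adjusted p = 0.392). The brightest probe set did not pass with aligned array medians (adjusted p = 0.0752), with quantile normalization (0.0770) and with the replicate block (0.0672). Nor did it pass when any 1 array except replicate 2 of P1 and replicates 2 and 3 of P21 was left out (0.0891 to 0.117).

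Among genes that make, move or remove the co-agonists glycine and D-serine, 3 of 10 tested rose, 0 fell and 7 did not pass, from 15 listed (median 0.20). The 3 that rose were Shmt2, the mitochondrial enzyme that interconverts serine and glycine, from 1185 ± 163 to 2694 ± 235 (1.18 ± 0.12, limma adjusted p = 6.48e-05), Psph of serine synthesis (0.69 ± 0.19) and the transporter gene Slc7a10 (0.47 ± 0.16, adjusted p = 0.0435). Slc7a10 did not pass with aligned array medians (adjusted p = 0.114), with quantile normalization (0.0950) or when any 1 array except P1 replicate 1 was left out (0.0567 to 0.113), and with aligned medians 2 genes of this list rose and 1 fell. Srr, which makes D-serine, was among the 5 listed genes that were not tested. Of 9 genes of glutamate release and uptake 7 were tested, of which 1 rose, 2 fell and 4 did not pass (median -0.17). The glial transporter gene Slc1a3 fell from 3247 ± 375 to 1287 ± 352 (-1.35) on its brightest probe set and by less on its other tested probe set (-0.47). The vesicular transporter gene Slc17a6 fell by 0.51 ± 0.16 on the log2 scale, while Slc1a2 rose by 0.48 ± 0.16. Slc1a2 did not pass with aligned array medians (adjusted p = 0.0645) or when any 1 array except P1 replicate 2 was left out (0.0501 to 0.0882), and Slc17a6 did not pass when P1 replicate 1, P1 replicate 3 or P21 replicate 2 was left out (0.0539 to 0.0664).

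The other ionotropic glutamate receptor genes were also divided. Of 11 genes of AMPA, kainate and delta receptors 9 were tested, of which 2 rose, 4 fell and 3 were not called, and the median was -0.25, as for the NMDA receptor genes. Gria4 was not called on its brightest probe set (-0.25) but rose on its other tested probe set (0.58, limma adjusted p = 0.00428). Gria3 rose from 2669 ± 256 to 4335 ± 244 (0.70 ± 0.10) and Grik4 by 0.78 ± 0.22 (adjusted p = 0.0215, or 0.0517 to 0.0527 with P1 replicate 3, P21 replicate 3 or P21 replicate 4 left out). Grik1 fell from 1209 ± 276 to 429 ± 45.2 and Gria1 at least 1.45-fold. Gria1, like Dapk1, entered the test only through its P1 readings. The rise of Grin3b was larger than any change in these 2 receptor groups, also at its bound of 7.90-fold.

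**Figure D4:**
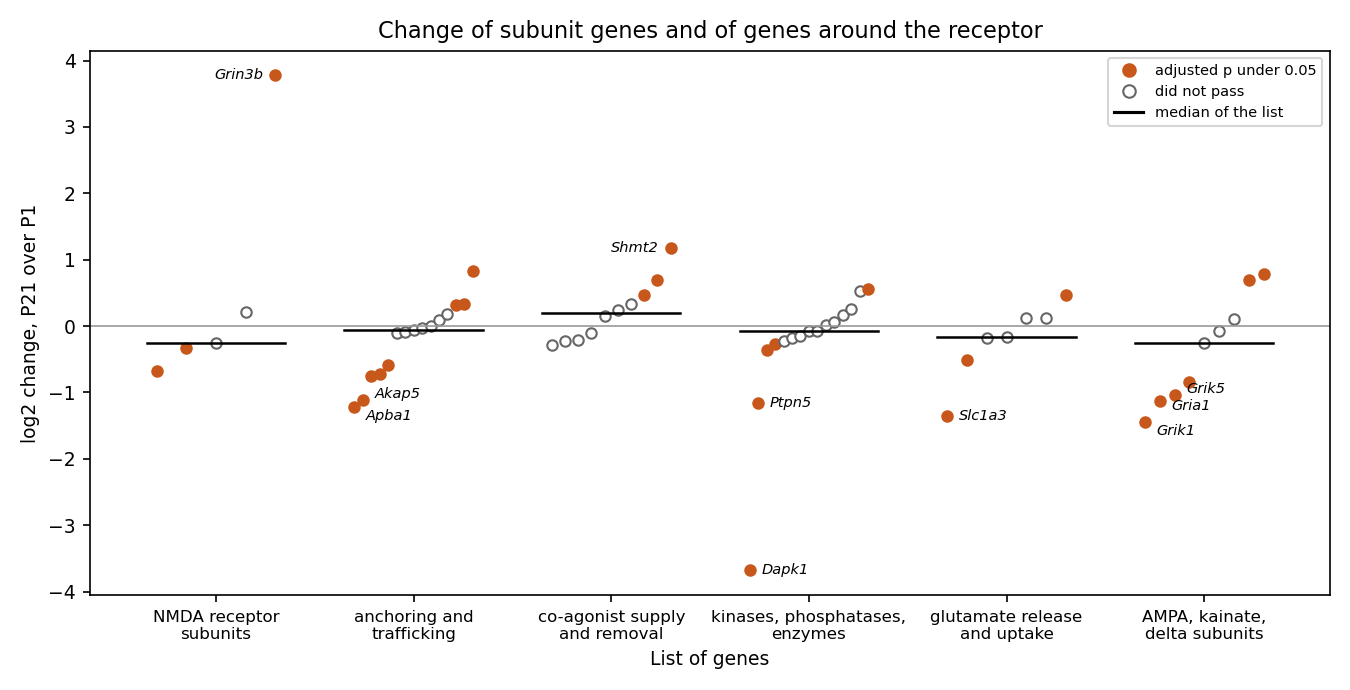
Change from P1 to P21 (log2 of P21 over P1) of the 5 tested NMDA receptor genes and of the tested genes of 5 lists around the receptor, 1 point per gene by its brightest tested probe set, filled where the limma adjusted p was under 0.05, with a bar for the median of each list. Names are given for changes larger than 1 in either direction, of which Grin3b (3.78) and Dapk1 (-3.68) stand farthest from 0. Grin3b lay under the filter level at P1 and Dapk1 at P21, so a change was implied by their being tested. Their bounds are at least 7.90-fold and at least 6.46-fold. The other Grin3b probe set, under the filter level on all 8 arrays, did not show the rise.

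Markers of the captured cells and of other cells were read on the same arrays. Of 7 motoneuron markers 2 rose (Chat and Isl2), 1 fell (Isl1) and 4 were not called. Isl2 passed narrowly (0.33 ± 0.12, limma adjusted p = 0.0469) and its ages overlapped. With array medians aligned or with quantile normalization, 1 motoneuron marker rose. Chat, the enzyme that makes acetylcholine, rose (1135 to 1715 at P1, 2990.2 to 4069 at P21), and the acetylcholine transporter gene Slc18a3 read 2693 to 5069 over both ages. Isl1, a transcription factor of motoneuron development, fell from 790 ± 209 to 240 ± 84.4 (-1.67 ± 0.24, limma adjusted p = 4.91e-04) and was above the filter level on 1 of 4 P21 arrays. The summed level of 7 motoneuron markers was 27197 to 30167 at P1 and 28824 to 34004 at P21. All 7 tested oligodendrocyte and myelin markers rose by their brightest probe set, with a summed level of 6035 to 7605 at P1 and 31957 to 34625 at P21. Mobp of that list read near 0 at P1 (-2.65 to 23.5), and Mbp read 1219 to 2571. Of 9 astrocyte markers 7 rose and 1 fell (summed level 14436 to 15908 and 22819 to 26959), with Gfap at 987 to 1596 and 3293 to 4788, and 3 of 5 oligodendrocyte precursor markers rose and 1 fell (7696 to 8835 and 10409 to 12448). Among microglial markers 3 of 5 rose (1949 to 2846 and 4143 to 7116), as did 4 of 7 endothelial and pericyte markers (7267 to 8857 and 9809 to 21946), while Aif1 and Cldn5 overlapped between the ages. With array medians aligned, 6 astrocyte markers and 3 endothelial and pericyte markers rose. The summed level of spinal interneuron markers was lower at P21 (14181 to 15339.8 and 9289 to 12314), but single markers were mixed. Of 7 tested 4 fell and 2 rose (Slc32a1 and Calb2), and with the replicate block 3 fell. Gad1 read 879 to 1134 and 449 to 888 on its brightest probe set. Its other tested probe set moved the other way without passing (0.51, limma adjusted p = 0.0844). The summed levels of the myelin, precursor, astrocyte, microglial and endothelial lists were all higher at P21, as was Grin3b. The part of these and the other cells in the subunit changes was not tested.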

How the data were processed

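Each array carried labelled RNA of 1 motoneuron pool. Per the labels' protocols, about 50 ng of RNA per pool was amplified in 2 rounds primed at the poly(A) tail, which favours the 3′ ends of transcripts. The authors deposited 1 linear intensity per probe set and array, and their probe summary, background correction and scaling are not given in the sources used here. Array medians lay between 323 and 416, and 66 to 250 values per array were below 0. Precision is set by the number of arrays, since sequencing depth does not apply.

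Gene names came from the platform annotation, updated by gene identifier (20826 with 1 symbol, 436 with several, 9780 with none). Negative values were raised to 0, and the log2(intensity + 16) values were fitted with limma 3.58.1 (lmFit and eBayes) in R 4.3.3, without a covariate, on the 19155 probe sets above the 40th percentile on at least 4 arrays. Benjamini-Hochberg adjustment ran over these. On simulated data in which 200 of the 19155 probe sets were changed, the fit recovered 78% of changes of 1 and 96% of changes of 2 on the log2 scale. It called 0.047% of unchanged probe sets. In the data 38.3% of probe sets were called, a far larger share than was changed in the simulation. The adjustment depends on that share, so these rates do not carry over to the data. Smaller changes, such as those of the tested members other than Grin3b, were not simulated. A gene is represented by its brightest tested probe set. Where all arrays of 1 age lay under the filter level, a bound was taken against that level. Such a probe set entered the test only through the other age, so that a change was implied by its being tested.

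Deviations of same-numbered arrays from their age's mean correlated at 0.514, 0.321, 0.558 and 0.150 from number 1 to number 4, each over 0.1, while differently numbered arrays reached 0.366. The reported p-values come from the fit without the pairing, and the fit with the replicate number as a block is an alternative. The design text divides litters between the ages without tying a number to a litter. Alternatives were the offset, the filter, median centring, quantile normalization, the replicate block, the mean of a gene's probe sets and leaving out each array, with the tested probe sets kept.

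The genes named were all members, the 3 closest genes to each, the 2 called genes with the largest change in each direction of each pathway list, and fixed markers. Slc7a10, Srr, Mobp, Isl1 and Isl2, as well as the within-array differences involving Grin1 and the difference between Grin2c and Grin2a, were chosen with their values in view. The members and lists were chosen with earlier results of these data known.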

Additional observations from a re-analysis of the deposited data

Results flagged for a closer look

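In 3 of the 26 groups of 4 readings of a member probe set at 1 age, 1 array stood apart from the other 3 by Dixon's criterion for 4 values, where chance gives about 1 in 20. For Grin2a probe set 1380861_at, P1 replicate 4 read 2078, under the other P1 arrays at 2633 to 2673. For Grin2c probe set 1368306_at, P1 replicate 1 read 1575, above the others at 1201 to 1236. For the dim Grin2b probe set 1391708_at, P1 replicate 1 read 253, above the others at 168 to 181.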

How the results depend on the processing

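The limma calls of both Grin2a probe sets and of Grin3b held under all 15 alternatives, with changes from -0.81 to -0.57, from -0.73 to -0.56 and from 3.42 to 3.91. Grin1 kept its direction under all 15 (-0.47 to -0.29) and its call under 13. Grin2c (0.07 to 0.30) and Grin3a (-0.39 to -0.13) were called under none, with smallest adjusted p-values of 0.0550 and 0.0789. With the replicate block 8805 probe sets were called against 7329, no call of a member changed, and among the called pathway genes that the report names with a fold or change by their brightest probe set Camk2a was the one that lost its call. The other probe sets of these genes, and Dlg4, Snx27, Slc38a1, Csnk2a1 and Gria4, were not followed through the alternatives. Leaving out 1 array gave 5985 to 7419 calls in all and 3 or 4 among the members. The mean of the 2 tested Grin2a probe sets changed by -0.63 (adjusted p = 0.00167). Without the filter 6 of 13 member probe sets were called, adding Grin1 1389900_at (-0.77, adjusted p = 0.0387) and Grin2d 1368951_at (0.51, adjusted p = 0.0176). Leaving out 1 array was extended to the named pathway genes after the data were seen. Centring arrays on their medians moved the share of calls that were higher at P21 from 54.4% to 38.6% and the median change of all probe sets from 0.07 to -0.07, and the 4 member calls kept their direction. Signal near the filter level limits what can be said of Grin2b, Grin2d and Grin3b at P1.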

Other observations

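Several genes around the receptor had tested probe sets that moved apart, a pattern picked with the values in view. Dlg4, the scaffold PSD-95, fell on its brightest probe set (-0.75 ± 0.12, limma adjusted p = 0.00113), rose on another (0.54 ± 0.13, adjusted p = 0.00768), and did not pass on 2 more (-0.14 and 0.20). Snx27, a sorting nexin that returns receptors to the surface, did not pass on its brightest probe set (-0.10), rose on another (0.55 ± 0.13, adjusted p = 0.00841) and fell on one more (-0.33 ± 0.10, adjusted p = 0.0211). The glutamine transporter gene Slc38a1 did not pass on its brightest probe set (-0.18) and had changes of 0.47 ± 0.12 and -0.50 ± 0.11 on the other 2 (adjusted p = 0.0136 and 0.00701). Csnk2a1 of the kinase list did not pass on its brightest probe set (-0.07), rose on another (0.59 ± 0.18, adjusted p = 0.0244) and fell on one more (-0.43 ± 0.15, adjusted p = 0.0431). It did not pass on the others (0.83 and -0.13). Gria4 did not pass on its brightest probe set (-0.25) and rose on another (0.58 ± 0.12, adjusted p = 0.00428). Gria3 rose on both of its tested probe sets, by 0.70 and 2.09. A count of genes by 1 probe set does not show these differences.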
